A study of Mus musculus with 3 samples.

Results

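The genes described here encode the translation factors and the aminoacyl-tRNA synthetases. They were taken from 3 lists of H3K4me3 peaks by name and position: a peak within 2000 bp of a transcription start site (TSS), with a gene name that starts with Eif or Eef, or that is 1 capital letter followed by ars, ars1 or ars2, or Eprs. This rule used no measured value of the contrasts. It found 88 of the 9080 genes named by a promoter peak, under 227 of 22802 peaks and in 86 of 9316 merged regions on 19 chromosomes. The peaks numbered 63 in TGFB1+miR-9-LOF, 82 in TGFB1 and 82 in Ctrl.

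ChIP-seq for H3K4me3 (antibody ab8580) was done on MLg cells, an established line of mouse lung fibroblasts, with 1 library in each of 3 groups. The TGFB1+miR-9-LOF cells had received an antagomiR, an inhibitor probe, against miR-9-5p and then TGFB1, the TGFB1 cells had received the cytokine without the miR-9 probe, and the Ctrl cells had no TGFB1. The protocol lists probes at 60 nM, human recombinant TGFB1 at 5 ng/ml starting 20 h after transfection and lasting 4 h, and harvest at 24 h, and the study describes control antagomiR transfection for the cells without the miR-9 probe, although the labels of TGFB1 and Ctrl name none. The study asked whether miR-9 is needed for H3K4me3 at promoters during the TGFB1 response. Of 10 fibroblast markers, 7 had a promoter peak (Col1a1, Col1a2, Pdgfra, Pdgfrb, Vim, Twist1 and S100a4) and Col3a1, Thy1 and Tbx4 had none. None of 10 markers of epithelial, endothelial and immune cells had one.

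Translation of an mRNA starts when eIF4 factors bind its capped end, eIF3 joins the small ribosomal subunit, and eIF2 brings the initiator tRNA to the start codon that eIF1, eIF1A and eIF5 help to select. Elongation factors then deliver charged tRNAs and move the ribosome, and aminoacyl-tRNA synthetases charge each tRNA with its amino acid, with separate enzymes for most tRNAs of mitochondria. Kinases that phosphorylate eIF2 and proteins that bind eIF4E slow initiation in stress. H3K4me3 is a mark of nucleosomes around the start sites of active and poised promoters, so its breadth describes the promoter and not the amount of mRNA or protein.

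Promoter sequences were read for the members. RefSeq windows (GRCm38.p6, the build of the peak lists) from 250 bases before to 50 bases after the start were matched for 63 of the 88 members and for 6947 of all genes. Each motif was searched on both strands, and matches of different motifs were allowed to overlap. TGATGNAAT, a site of the C/EBP-ATF kind that is known from amino acid response promoters, was in 3 of 63 members (4.76%, 95% Wilson interval 1.63 to 13.1), against 0.345% of all promoters (0.232 to 0.514). These members were Aars, Gars and Iars, the synthetases for alanine, glycine and isoleucine. The windows of 30 bases around the match in Gars and Iars are shown because the site recurs in genes of 1 enzyme class, with the match in capitals as it reads on the plus strand (chr6:55037960-55037989 and chr13:49682126-49682155, both on the plus strand):
Gars: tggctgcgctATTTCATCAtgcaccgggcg
Iars: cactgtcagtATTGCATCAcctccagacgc

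The E-box CACGTG was in 13 of 63 members (20.6%, 12.5 to 32.2), against 10.9% of all promoters (10.2 to 11.7). Both Aars and Iars held it as well. The mature mmu-miR-9-5p sequence is shown because the antagomiR is directed at it, with its seed, bases 2 to 8, in capitals:
mmu-miR-9-5p: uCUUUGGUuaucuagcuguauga
The DNA complement of that seed, ACCAAAG, was in 3 members (Eif3a, Eif3c and Yars2; 4.76%, 1.63 to 13.1), against 3.34% of all promoters (2.94 to 3.79), a share that the members' interval includes. The whole windows of Eif3a (chr19:60790644-60790943, minus strand) and Eif4e (chr3:138527018-138527317, plus strand) are shown for the largest loss of length among kept peaks and for a lost peak, with ACCAAAG and CACGTG in capitals in Eif3a and CACGTG in capitals in Eif4e:
Eif3a: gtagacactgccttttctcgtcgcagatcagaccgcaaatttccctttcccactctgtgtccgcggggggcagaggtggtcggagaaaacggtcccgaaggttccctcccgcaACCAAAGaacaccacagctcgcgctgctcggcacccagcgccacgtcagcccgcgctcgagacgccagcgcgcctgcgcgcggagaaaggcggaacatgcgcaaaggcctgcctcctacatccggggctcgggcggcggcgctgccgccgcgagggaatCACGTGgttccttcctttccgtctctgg
Eif4e: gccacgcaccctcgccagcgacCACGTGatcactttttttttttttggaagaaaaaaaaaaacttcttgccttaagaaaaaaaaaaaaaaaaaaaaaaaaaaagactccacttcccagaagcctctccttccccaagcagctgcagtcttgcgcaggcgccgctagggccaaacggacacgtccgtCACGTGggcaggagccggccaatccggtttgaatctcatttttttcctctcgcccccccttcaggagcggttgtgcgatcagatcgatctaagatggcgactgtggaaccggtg

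For the other motifs the interval of the members included the share of all genes. CCGGAAGT, the ETS site, was in 6 of 63 members against 10.1% of all promoters, GCATGCGC, the NRF1 site, in 6 against 6.69%, and TATAAA in 5 against 5.70%. A G-quadruplex pattern, 4 runs of 3 or more G with 1 to 7 bases between them, was in 11 of 63 members (17.5%, 10.04 to 28.6), against 28.6% of all promoters (27.5 to 29.6). The median GC content was 60% in members (57 to 62.7) and 62.3% in all genes (62 to 62.3). A match says only that these letters are in the window.

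Each member had 1 promoter region, with at most 1 peak in a library. The measure used below is the covered length, the base pairs of a gene's promoter region that lie under a peak. It had a median of 1428.5 bp in TGFB1+miR-9-LOF (66 members with a peak, 95% order-statistic interval 1380 to 1546), 1923 bp in TGFB1 (88 members, 1787 to 1980) and 1804 bp in Ctrl (87 members, 1713 to 1882). The medians of all genes were 1351, 1771 and 1711 bp in the same order. The peak score that comes with each peak ranked members above the middle of TGFB1 and Ctrl. The median score percentile of the members among all genes was 52.2 (42.7 to 73.6) in TGFB1+miR-9-LOF, 70.2 (59.6 to 81.8) in TGFB1 and 63.6 (53.4 to 74.3) in Ctrl. With 1 library per group no difference has a replicate check or a p-value, and all intervals cover counting error only. Genes are not replicates, and Eif3j1 with Eif3j2, and Hars with Hars2, share a region and are not independent.

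**Figure D1:**
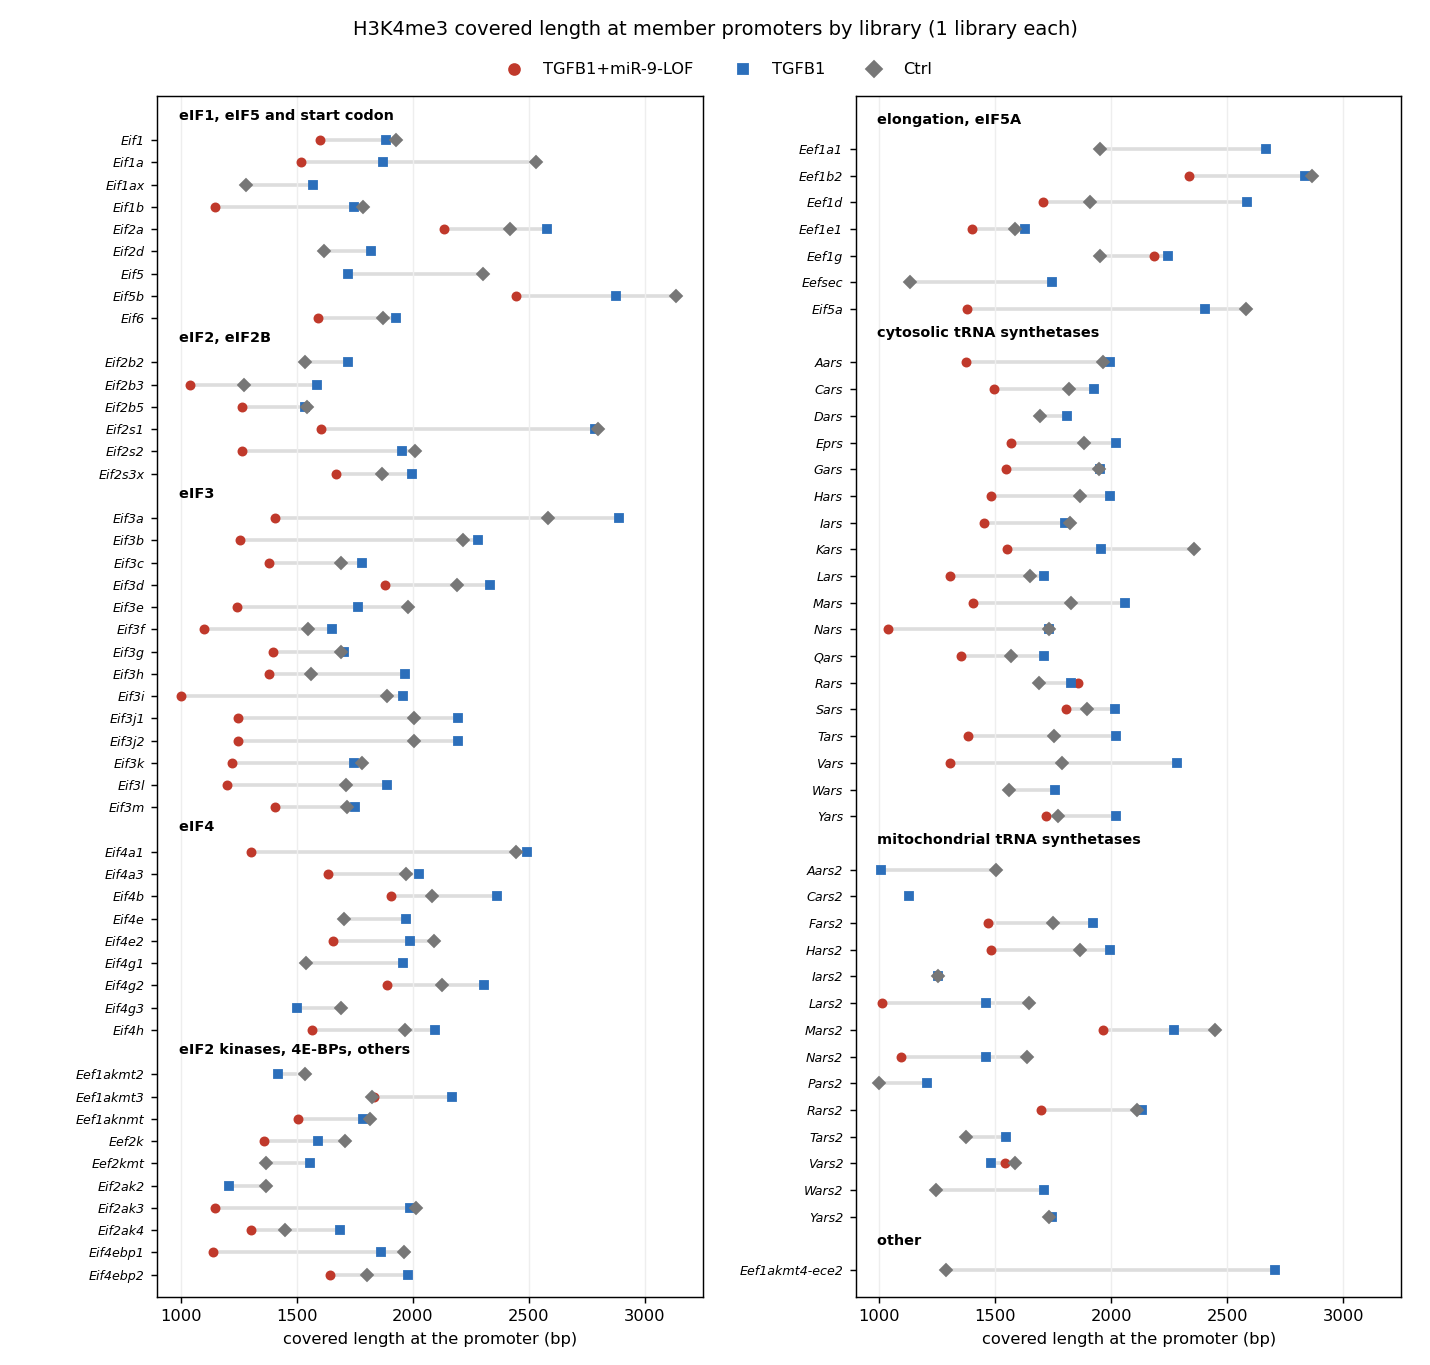
Covered length (bp) at the promoter of each of the 88 members, by role, with circles for TGFB1+miR-9-LOF, squares for TGFB1 and diamonds for Ctrl, 1 library each; a missing symbol means no peak in that library. Of 66 members with a peak in all 3 libraries, 62 were shortest in TGFB1+miR-9-LOF. The same count was not made for all genes, of which 98.5% were shorter in TGFB1+miR-9-LOF than in TGFB1 where both had a peak.

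In TGFB1+miR-9-LOF, 22 of the 88 members with a TGFB1 peak had no peak (25%, 17.1 to 35.0), against 43.2% of all genes. Of the 66 remaining members, which lie in 64 regions, 64 had a shorter peak than in TGFB1 (98.5% of all genes) and 2 a longer one (1.5% of all genes). They kept a median of 77.6% of their TGFB1 length (48.7 to 104.0%, lowest to highest). The median log2 ratio was −0.37 (−0.50 to −0.31, n = 66), against −0.49 (−0.50 to −0.48, n = 5063) for all genes. Peaks at least 20% shorter than in TGFB1 were seen in 39 of 66 members (59.1%, 47.0 to 70.1), against 73.4% of all genes. The score was lower in TGFB1+miR-9-LOF than in TGFB1 in 65 of 66 members, although scores are not scaled between libraries. The median score of all genes was also lower, 46 in TGFB1+miR-9-LOF and 91 in TGFB1. The share of all genes with a lower score was not counted, so the drop is not read as a trait of the members.

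Members without a TGFB1+miR-9-LOF peak had lower scores in TGFB1 to begin with. Their TGFB1 scores ran over 38 to 117 with a median of 67, against 53 to 205 with a median of 129 in members that kept a peak. Over the quartiles of the TGFB1 score of all genes (25 to 66, 67 to 91, 92 to 119 and 120 or more), 11 of 12, 5 of 13, 6 of 22 and 0 of 41 members had no TGFB1+miR-9-LOF peak. The shares of all genes without one in these quartiles were 84.3%, 54.0%, 26.4% and 7.60%. The intervals of the members included the value of all genes in each quartile (64.6 to 98.5, 17.7 to 64.5, 13.2 to 48.2 and 0 to 8.57%). The top quartile held 46.6% of the members. Members that kept a peak had median log2 ratios of −0.40 (n = 8), −0.37 (n = 16) and −0.34 (n = 41) in the second to the top quartile, against −0.57, −0.52 and −0.41 for all genes, so within these quartiles their peaks shortened less by the median, while the lowest quartile held 1 such member. The part of sequencing depth and of ChIP enrichment in these losses was not tested, since the lists carry no read counts.

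**Figure D2:**
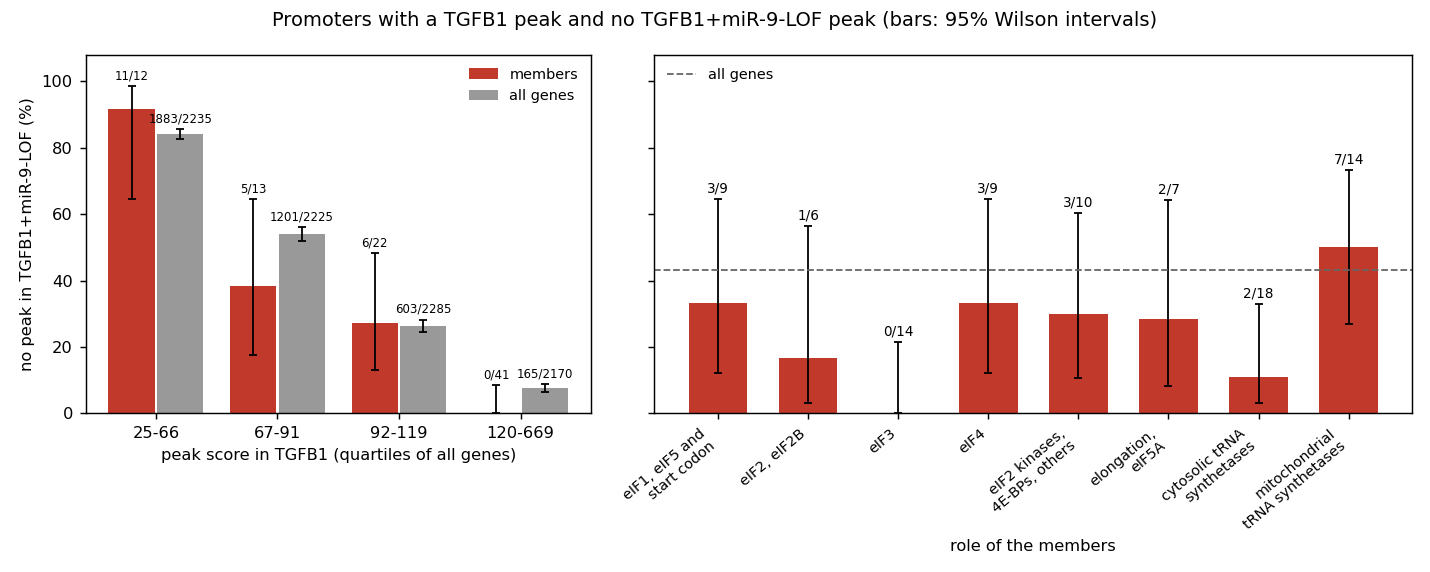
Share of promoters with a TGFB1 peak and no TGFB1+miR-9-LOF peak (%), by quartile of the TGFB1 peak score for members and all genes (left) and by role of the members (right), with 95% Wilson intervals and counts above the bars; the dashed line is all genes at 43.2%. The share was lower at higher scores in both sets, to 0 of 41 members in the top quartile, and ran over 0 of 14 eIF3 names (13 regions) to 7 of 14 mitochondrial synthetases.

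TGFB1 and Ctrl differed far less. Of 87 members with a Ctrl peak, 8 were at least 25% longer in TGFB1 (9.20%, 4.73 to 17.1), against 10.6% of all genes, and 3 were at least 20% shorter (3.45%, 1.18 to 9.65), against 2.98%. No member lost its peak in TGFB1 (0 of 87, against 1.9% of all genes), and Cars2, the mitochondrial cysteine enzyme, was the only member with a peak in TGFB1 and none in Ctrl (1 of 88, against 5.37%). The median log2 ratio was 0.08 (0.02 to 0.10, n = 87), against 0.06 (0.06 to 0.07, n = 8436) for all genes. These shares and medians were near those of all genes, and they describe no response of the members as a set. Both contrasts use the TGFB1 library, so a long TGFB1 peak makes a gene longer in the one and shorter in the other.

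**Figure D3:**
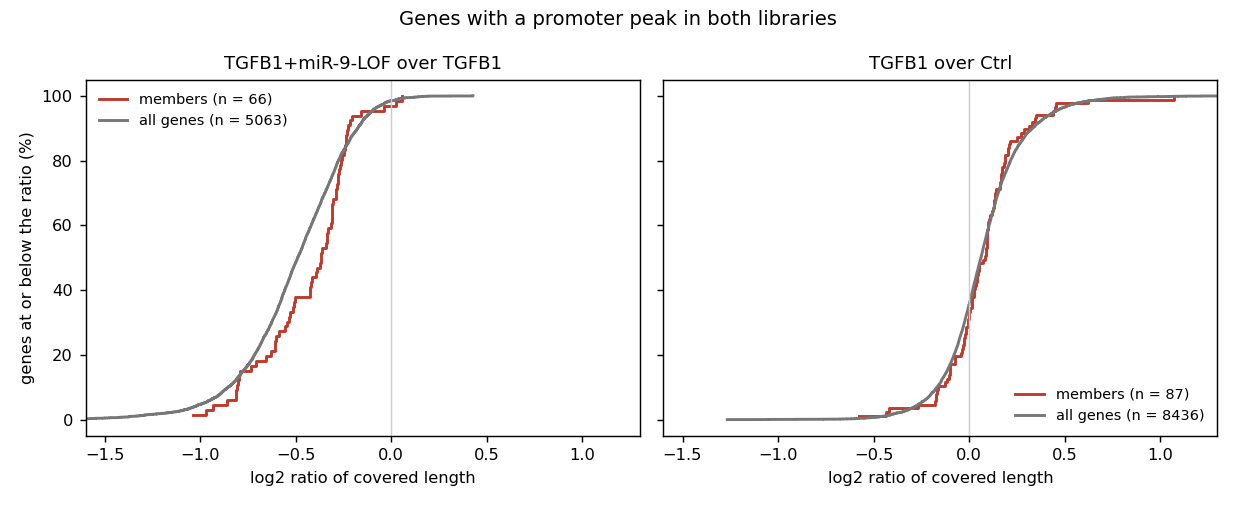
Cumulative share of genes (%) at or below each log2 ratio of covered length, for TGFB1+miR-9-LOF over TGFB1 (left) and TGFB1 over Ctrl (right), members in red and all genes in gray, among genes with a peak in both libraries. Over most of its range the member line lies to the right of that of all genes on the left panel (medians −0.37 and −0.49), and the lines overlap on the right panel (0.08 and 0.06).

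In the eIF4 group, which binds the capped end of the mRNA and unwinds it, 3 of 9 members lost their peak in TGFB1+miR-9-LOF (33.3%, 12.1 to 64.6, against 43.2% of all genes). Eif4e, the cap-binding protein, lacked a peak in TGFB1+miR-9-LOF and covered 1973 bp in TGFB1 (score 109) and 1706 bp in Ctrl (score 60), in the region chr3:138526867-138528839. Eif4g1, the scaffold that joins eIF4E, eIF4A and eIF3, lacked a peak in TGFB1+miR-9-LOF and covered 1957 bp in TGFB1 and 1540 bp in Ctrl, a log2 ratio of 0.35 for TGFB1 over Ctrl. Its paralog Eif4g3 had none, 1500 bp and 1690 bp in the same order. The homologs Eif4e2 (1656, 1987 and 2093 bp) and Eif4g2 (1890, 2307 and 2125 bp) kept a peak. Eif4a1, the RNA helicase, covered 1304 bp in TGFB1+miR-9-LOF, 2491 bp in TGFB1 and 2444 bp in Ctrl, a log2 ratio of −0.93 for TGFB1+miR-9-LOF over TGFB1. Eif4a3, the helicase of the exon junction complex, covered 1635, 2026 and 1971 bp and had the highest TGFB1+miR-9-LOF score of all members (97). The eIF4 median log2 ratio for TGFB1+miR-9-LOF over TGFB1 was −0.31 (−0.93 to −0.26, n = 6).

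The 14 gene names of eIF3, the complex that bridges mRNA and the small ribosomal subunit, lie in 13 regions, and each region had a TGFB1+miR-9-LOF peak that was shorter than in TGFB1. So 0 of 14 names lacked a peak (0 to 21.5%), against 43.2% of all genes. Their TGFB1 scores were high, with a median of 128.5 (91 to 154) and a median percentile of 82.0. The part of the score in this was not tested. Eif3j1 and Eif3j2 share a region. Its peak was named Eif3j1 in TGFB1+miR-9-LOF and Eif3j2 in TGFB1 and Ctrl, and by annotated TSS it belonged to Eif3j1, with no region for Eif3j2. Of the 14 names, 11 were at least 20% shorter (78.6%, 52.4 to 92.4, against 73.4% of all genes; 10 of 13 with regions counted once), and the median log2 ratio was −0.55 (−0.86 to −0.32), an interval that overlaps that of all members. Eif3a, the largest subunit, covered 1406 bp in TGFB1+miR-9-LOF, 2887 bp in TGFB1 and 2582 bp in Ctrl (region chr19:60788382-60791268), a log2 ratio of −1.04 for TGFB1+miR-9-LOF over TGFB1. It kept 48.7% of the TGFB1 length, the lowest share among the 66 kept members. The upstream end of its TGFB1+miR-9-LOF peak lay 162 bp downstream of the TSS, so that the promoter window printed above was inside the TGFB1 peak and outside the TGFB1+miR-9-LOF peak. Eif3i covered 1000 bp in TGFB1+miR-9-LOF, 1958 bp in TGFB1 and 1888 bp in Ctrl, and shares its promoter with Tmem234, whose name the TGFB1 and Ctrl peaks carried. A covered length of 1000 bp is the shortest peak in any list, so Eif3i was at the lower limit of the measure. Eif3b covered 1258, 2280 and 2218 bp, and the region shared by Eif3j1 and Eif3j2 covered 1248, 2193 and 2004 bp, in the same order of libraries. In TGFB1 over Ctrl only Eif3h of the eIF3 genes was at least 25% longer, with 1965 bp in TGFB1 and 1564 bp in Ctrl, and 1380 bp in TGFB1+miR-9-LOF. Eif3e had 1764 bp in TGFB1 and 1978 bp in Ctrl, the largest decrease in bp among the eIF3 genes.

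The start codon group held 2 of the 3 members that were at least 20% shorter in TGFB1 over Ctrl. They were 2 of its 9 genes (22.2%, 6.32 to 54.7), against 2.98% of all genes. Eif1a, a gene named for eIF1A, which helps in scanning, covered 1518 bp in TGFB1+miR-9-LOF, 1873 bp in TGFB1 and 2531 bp in Ctrl, a log2 ratio of −0.43 for TGFB1 over Ctrl, in a region that also carries the name Tmed7. The TGFB1+miR-9-LOF and Ctrl peaks were named Tmed7, so by its own name Eif1a had a peak in TGFB1 alone and no ratio. Eif5, which triggers the hydrolysis of GTP by eIF2 at the start codon, lacked a peak in TGFB1+miR-9-LOF and covered 1722 bp in TGFB1 and 2304 bp in Ctrl, a log2 ratio of −0.42 for TGFB1 over Ctrl. Both had the longest peak in Ctrl and a higher score in TGFB1, 119 against 59 for Eif1a and 117 against 62 for Eif5. Eif5b, the GTPase of subunit joining, covered 2445, 2874 and 3133 bp in TGFB1+miR-9-LOF, TGFB1 and Ctrl and was the longest member in TGFB1+miR-9-LOF and in Ctrl, in a region shared with Txndc9. Of the 9 genes, Eif1ax, Eif2d and Eif5 were without a TGFB1+miR-9-LOF peak (33.3%, 12.1 to 64.6, against 43.2% of all genes). Eif2d, an alternative factor for binding tRNA to the ribosome, covered 1819 bp in TGFB1 and 1618 bp in Ctrl.

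Of the eIF2 and eIF2B genes, 5 of 6 kept a peak in TGFB1+miR-9-LOF and 1 had none. That share of 16.7% (3.01 to 56.4) has an interval that includes the 43.2% of all genes. The median log2 ratio of the kept genes over TGFB1 was −0.61 (n = 5). Eif2s1, the alpha subunit that eIF2 kinases phosphorylate, covered 1604 bp in TGFB1+miR-9-LOF, 2783 bp in TGFB1 and 2799 bp in Ctrl, so that TGFB1 and Ctrl differed by −16 bp and TGFB1+miR-9-LOF was 1179 bp shorter than TGFB1. The log2 ratio for TGFB1+miR-9-LOF over TGFB1 was −0.79. Eif2b3, a subunit of the exchange factor eIF2B, covered 1041, 1587 and 1275 bp in TGFB1+miR-9-LOF, TGFB1 and Ctrl, a log2 ratio of 0.32 for TGFB1 over Ctrl that is just under a length 25% longer. Its scores of 54 in TGFB1+miR-9-LOF and 53 in TGFB1 made it the only kept member whose score was not lower in TGFB1+miR-9-LOF. Eif2b2 had no TGFB1+miR-9-LOF peak and covered 1721 bp in TGFB1 and 1538 bp in Ctrl.

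The regulators held no gene at least 25% longer or 20% shorter in TGFB1 over Ctrl (0 of 10 each, 0 to 27.8%). The shares of all genes were 10.6% and 2.98%, both inside that interval. The median log2 ratio of the regulators was −0.02 (−0.12 to 0.22). Of the eIF2 kinases, Eif2ak3 (PERK, of the endoplasmic reticulum) covered 1149 bp in TGFB1+miR-9-LOF, 1989 bp in TGFB1 and 2013 bp in Ctrl, and Eif2ak4 (GCN2, which senses uncharged tRNA) covered 1302, 1685 and 1451 bp. Eif2ak2 (PKR, which binds double-stranded RNA) lacked a peak in TGFB1+miR-9-LOF and covered 1210 bp in TGFB1 and 1368 bp in Ctrl. The repressor of eIF4E encoded by Eif4ebp1 covered 1140 bp in TGFB1+miR-9-LOF, 1863 bp in TGFB1 and 1963 bp in Ctrl, and its paralog Eif4ebp2 covered 1644, 1980 and 1804 bp. Eif4ebp2 had the highest TGFB1 score of all members (205). Eef1akmt2 and Eef2kmt, which encode methyltransferases of elongation factors, were the other 2 regulators without a TGFB1+miR-9-LOF peak. In all, 3 of 10 regulators had none (30%, 10.8 to 60.3), against 43.2% of all genes.

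The elongation group held 3 of the 8 members that were at least 25% longer in TGFB1 over Ctrl (3 of 7 genes, 42.9%, 15.8 to 74.95, against 10.6% of all genes). Eef1a1, which delivers charged tRNA to the ribosome, lacked a peak in TGFB1+miR-9-LOF and covered 2668 bp in TGFB1 and 1950 bp in Ctrl (region chr9:78478852-78481573), a log2 ratio of 0.45 for TGFB1 over Ctrl. Its peak began 151 bp downstream of the TSS in TGFB1 and 923 bp downstream in Ctrl, and the 2 peaks ended at nearly the same place, 2819 and 2873 bp downstream. The extra length in TGFB1 was therefore on the side of the start site. Eef1d, a subunit of the exchange factor of eEF1A, covered 1705 bp in TGFB1+miR-9-LOF, 2586 bp in TGFB1 and 1907 bp in Ctrl, a log2 ratio of 0.44 for TGFB1 over Ctrl, although its score was 138 in TGFB1 and 143 in Ctrl. Eefsec, which delivers selenocysteine tRNA, lacked a peak in TGFB1+miR-9-LOF and covered 1745 bp in TGFB1 and 1135 bp in Ctrl, with low scores of 43 and 72. The other subunits of the exchange factor were among the long peaks that stayed long. Eef1b2 covered 2334, 2834 and 2864 bp in TGFB1+miR-9-LOF, TGFB1 and Ctrl, and Eef1g covered 2185, 2243 and 1950 bp. Eif5a, which helps ribosomes past proline stretches, covered 1381 bp in TGFB1+miR-9-LOF, 2404 bp in TGFB1 and 2579 bp in Ctrl, a log2 ratio of −0.80 for TGFB1+miR-9-LOF over TGFB1.

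Most cytosolic synthetases kept a peak in TGFB1+miR-9-LOF, and 7 of 14 mitochondrial ones did. Of 18 cytosolic synthetases 2 had no peak (11.1%, 3.10 to 32.8), Dars (aspartate) and Wars (tryptophan). Of 14 mitochondrial synthetases 7 had none (50%, 26.8 to 73.2), namely Aars2, Cars2, Iars2, Pars2, Tars2, Wars2 and Yars2. The share over all genes was 43.2%, inside the mitochondrial interval and above the cytosolic one. The intervals overlap, and the mitochondrial genes also had lower TGFB1 scores, a median of 70 (47 to 124) against 131.5 (112 to 162) for the cytosolic genes. The TGFB1 length was shorter too, with medians of 1515 bp (1209 to 1993) and 1954.5 bp (1800 to 2020). The part of the score in this difference was not tested. Hars2 is counted with the region it shares with Hars, and Fars2 shares its region with Lyrm4.

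Among cytosolic enzymes, Vars (valine) covered 1305 bp in TGFB1+miR-9-LOF, 2283 bp in TGFB1 and 1789 bp in Ctrl, the only one at least 25% longer in TGFB1 over Ctrl (log2 0.35). Kars, the lysine enzyme that serves both compartments, covered 1552, 1958 and 2358 bp, with the longest peak in Ctrl, where the peak carried the name of the neighbour Terf2ip. Rars (arginine) covered 1857, 1825 and 1691 bp in TGFB1+miR-9-LOF, TGFB1 and Ctrl, and was 1 of the 2 members longer in TGFB1+miR-9-LOF than in TGFB1, by 32 bp. The other was Vars2, the mitochondrial valine enzyme, with 1543, 1484 and 1588 bp. The 3 synthetases in which the TGATGNAAT site was found all kept a peak, as did 16 of the 18 cytosolic synthetases. Some synthetases, such as Cars, Lars, Mars and Rars, had no matched window and were not searched. Aars covered 1376, 1995 and 1963 bp, Gars 1546, 1951 and 1949 bp, and Iars 1451, 1800 and 1824 bp, so each differed by at most 32 bp between TGFB1 and Ctrl.

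Among mitochondrial enzymes, Wars2 lacked a peak in TGFB1+miR-9-LOF and covered 1709 bp in TGFB1 and 1247 bp in Ctrl (log2 0.45 for TGFB1 over Ctrl). Aars2 had none, 1009 bp and 1506 bp in the same order, a log2 ratio of −0.58 and the largest fold decrease of a member in TGFB1 over Ctrl. Its TGFB1 length was near the shortest peak of the lists, 1000 bp. Its scores were low, 50 in TGFB1 (percentile 10.2) and 43 in Ctrl (percentile 7.97). Cars2 had a peak in TGFB1 only, with 1128 bp and a score of 44, a percentile of 5.96 among all genes in that library. Mars2 kept 1967 bp in TGFB1+miR-9-LOF, with 2270 bp in TGFB1 and 2446 bp in Ctrl, and was among the 5 longest members in TGFB1+miR-9-LOF.

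The largest difference between TGFB1 and Ctrl was at Eef1akmt4-ece2, a readthrough transcript of a methyltransferase gene and Ece2, with no peak in TGFB1+miR-9-LOF, 2705 bp in TGFB1 and 1288 bp in Ctrl (log2 1.07). Its TGFB1 peak carried the name of the neighbour Alg3 and spanned both promoters. Counted by its own name alone, the gene had no peak in TGFB1. It is 1 of 8 member regions with more than 1 gene name.

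The peaks shortened on both sides in TGFB1+miR-9-LOF. Relative to TGFB1, the upstream edge of members moved by −232 bp (−306 to −185) and the downstream edge by −183 bp (−241 to −139), with negative values toward the peak (n = 65). The values of all genes were −260 and −238 bp (n = 4935). For TGFB1 over Ctrl the edges of members moved by 27 bp upstream (−7 to 67) and 33 bp downstream (7 to 78), against 35 and 30 bp for all genes. Of the peaks named for a member, 12 of 63 in TGFB1+miR-9-LOF did not hold the TSS (19.0%), against 26.1% of all promoter peaks. The same held for 6 of 82 in TGFB1 (7.32%, all promoter peaks 7.57%) and 7 of 82 in Ctrl (8.54%, 9.64%). In TGFB1+miR-9-LOF the gap between TSS and peak was widest in Eif4a1 (460 bp) and Vars (440.5 bp). The Eif4a1 peak also missed the TSS in TGFB1, by 188.5 bp, and the Vars peak in Ctrl, by 154.5 bp.

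**Figure D4:**
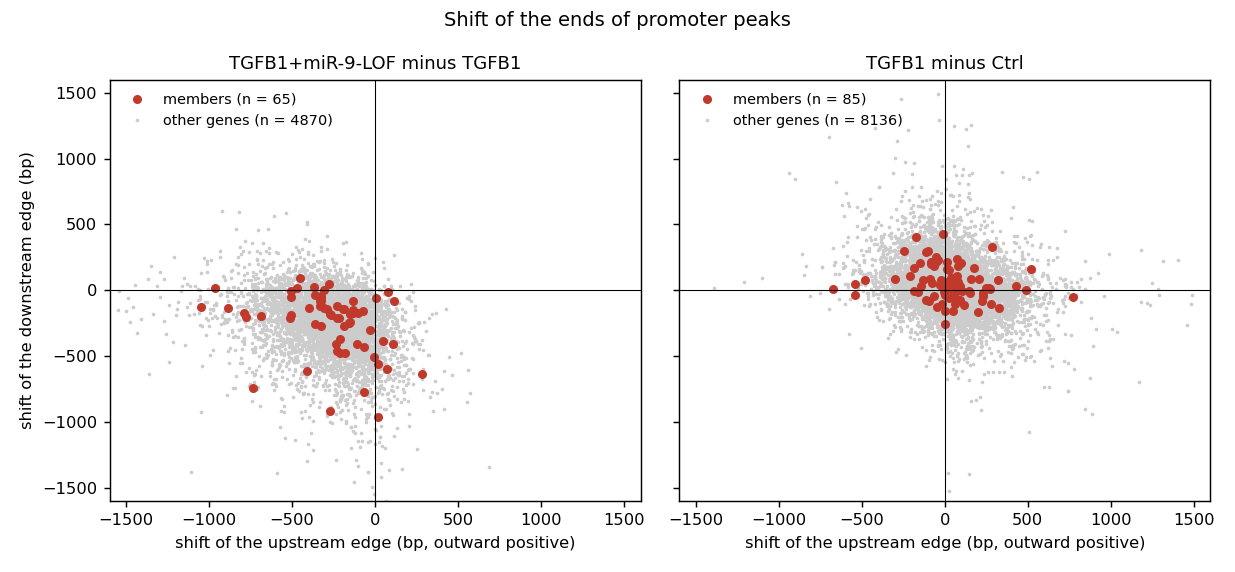
Shift of the upstream edge (x) and downstream edge (y) of promoter peaks in bp, outward positive, for TGFB1+miR-9-LOF minus TGFB1 (left) and TGFB1 minus Ctrl (right), with members in red over the other genes in gray; the few genes beyond the axis limits are not drawn. In the left panel 56 of 65 members have the upstream edge and 59 the downstream edge moved inward, against 4448 and 4404 of 4935 of all genes. In the right panel the points lie around 0.

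Broad peaks of at least 2700 bp were rare in the members. They made up 0 of 63 member peaks in TGFB1+miR-9-LOF (0 to 5.75%), 3 of 82 in TGFB1 and 3 of 82 in Ctrl (3.66% each, with an upper bound of 10.2%), against 0.0623%, 2.08% and 1.57% of all promoter peaks. Peaks of 2000 bp up to that length numbered 4 of 63 (6.35%), 22 of 82 (26.8%) and 15 of 82 (18.3%) in the same order, against 3.20%, 21.7% and 17.8% of all promoter peaks. Eif3a, Eef1b2 and Eif2s1 had the broad peaks named for a member in TGFB1. In TGFB1+miR-9-LOF only Eef1b2 of these was above 2000 bp.

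Genes that work with the members but do not match the names were described in the same way. Of 55 listed partners 48 had a promoter peak, and 13 of 48 had no TGFB1+miR-9-LOF peak (27.1%, against 43.2% of all genes). In TGFB1 over Ctrl 6 of 46 were at least 25% longer and 1 at least 20% shorter, against 10.6% and 2.98% of all genes. Of the 35 partners with a peak in both TGFB1+miR-9-LOF and TGFB1, 30 were at least 20% shorter in TGFB1+miR-9-LOF (85.7%, 70.6 to 93.7), against 59.1% of members and 73.4% of all genes. The interval of the partners includes the share of all genes. The median log2 ratios of the partners were −0.47 (n = 35) for TGFB1+miR-9-LOF over TGFB1 and 0.08 (n = 46) for TGFB1 over Ctrl. Those of all genes were −0.49 and 0.06. Of the integrated stress response and mTOR list, 4 of 18 genes were at least 25% longer in TGFB1 than in Ctrl (22.2%, 9.001 to 45.2, an interval that includes the 10.6% of all genes), and 1 was at least 20% shorter, Trib3, with no peak in TGFB1+miR-9-LOF, 1005 bp in TGFB1 and 1410 bp in Ctrl. The TGFB1 length of Trib3 was near the shortest peak of the lists, 1000 bp. Atf5, a transcription factor of the stress response, lacked a peak in TGFB1+miR-9-LOF and covered 2581 bp in TGFB1 and 1697 bp in Ctrl, and Rictor, a subunit of mTORC2, had none, 2361 bp and 1630 bp. Among 12 genes of termination, recycling and mRNA end binding 10 kept a peak and 2 had none (16.7%, 4.70 to 44.8, against 43.2% of all genes). Etf1, the release factor that reads stop codons, covered 2014, 2829 and 2699 bp in TGFB1+miR-9-LOF, TGFB1 and Ctrl.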

How the data were processed

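MLg cells were profiled by H3K4me3 ChIP-seq, 1 library per group, with groups taken from the treatment labels. The submitters' processing notes name Trimmomatic, Bowtie2, Picard (1.119), deepTools (3.5.1), MACS3, bedtools, HOMER and mm10. An input control is not given in the sources used here. The authors deposited a list of annotated peaks per library, with positions, the nearest TSS and its gene, and a peak score of unstated scale. The score was used here to rank, bin or filter peaks. Where scores of different libraries are given side by side, they are as deposited and not scaled between libraries. The authors' lists hold no counts, so depth is unknown, and a difference in depth can alter how many peaks are called and their width. The shortest peak was 1000 bp.

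Peaks of the 3 lists that share at least 1 bp were merged into regions. A gene's covered length is the bp under any peak in the promoter regions that carry its name, within 2000 bp of a TSS. Ratios were taken between libraries that both had a peak. Shares carry 95% Wilson intervals and medians order-statistic intervals (Python 3.11.15, pandas 2.3.3, numpy 2.4.6, scipy 1.17.1). The merging into regions, the ratios of covered length and the finding of lost peaks were tested on simulated lists made from the Ctrl peaks. The other steps were not tested in this way. The members, role lists and partner lists were chosen with earlier results of these data known. Named were the largest changes in bp per contrast and per role, the longest peaks, lost and gained members and all increases in TGFB1+miR-9-LOF over TGFB1; a few other members were named after their values were seen. The alternatives were a higher score minimum, a TSS distance of 1000 bp, the widest peak, own gene names, TSSs of the GENCODE M21 annotation, 50% overlap and a limit of 1.5-fold.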

Additional observations from a re-analysis of the deposited data

How the results depend on the processing

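With a score of at least 50, 30 members had a TGFB1+miR-9-LOF peak in place of 66, and 50 of 80 were without one (62.5%, against 74.5% of all genes). The same minimum need not be equally strict in each library. With an equal number of peaks, the 4959 with the highest scores in each list, an alternative chosen after seeing the data, 4 members were at least 25% longer and 0 at least 20% shorter in TGFB1 over Ctrl, and 7 of 67 were without a TGFB1+miR-9-LOF peak (10.4%, against 20.5% of all genes). With a limit of 1.5-fold, 2 members were longer and 0 shorter in TGFB1 over Ctrl. The cause of these shifts was not tested. For the longer and shorter members in TGFB1 over Ctrl, the shares of all genes under these alternatives were not counted. Nothing about the members is read from those counts. Counted by own gene name, 24 of 82 members were without a TGFB1+miR-9-LOF peak (29.3%, against 46.3% of all genes). By annotated TSS they were 23 of 94 (24.5%, against 41.8% of all genes). Among the members still compared, no direction changed in either contrast under the alternatives tried on the ratios. The fewest members compared for TGFB1+miR-9-LOF over TGFB1 were 30, with a score of at least 50. For TGFB1 over Ctrl they were 59, with an equal number of peaks. Each member had at most 1 peak in a library, so most of these alternatives drop a peak or leave its length unchanged. They could therefore hardly turn a direction, and no conclusion is drawn from this. The remaining results stayed within their limits. No paired analysis was possible because each group had 1 library and the labels give no replicate numbers. For the same reason no library could be left out.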

Other observations

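The GENCODE M21 annotation holds 104 protein-coding genes that match the names, of which 94 had a region within 500 bp of a TSS. Of these, 9 were named by no promoter peak, and the peak there, for 8 of them, carried the name of another gene. They include Eif2b1 under Gtf2h3, Eif2b4 under Snx17, Eif4a2 under Snord2, and the mitochondrial synthetases Ears2 under Ubfd1 and Sars2 under Mrps12. A further 10 had no region in any library, among them Eef2, the translocase of elongation, and Eef1a2, the form of eEF1A known from muscle and neurons.

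Peaks that the deposited annotation places far from a TSS and that carried a name of these families were few. An intergenic peak upstream of Eef2k, the kinase of eEF2, covered 1184 bp in TGFB1+miR-9-LOF, 1966 bp in TGFB1 and 1831 bp in Ctrl. A peak named for Eif2ak1, the heme-regulated eIF2 kinase, covered 1605, 1835 and 1785 bp in the same order, and although the deposited annotation places it far from a TSS, it lies within 500 bp of a GENCODE start of that gene. A peak named for Eif2s3x was missing in TGFB1+miR-9-LOF and covered 1308 bp in TGFB1 and 1414 bp in Ctrl.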
